A study of Mus musculus with 10 samples.

Results

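Acetylation of histone H3 at lysine 9 (H3K9ac) was compared between undifferentiated 3T3-L1 cells (0 h) and the same line after 240 h of adipocyte differentiation, as 2 lists of genomic regions. All regions of both lists were used, 4429 at 0 h and 7845 at 240 h, which makes 12274 of the 49015 peaks and regions listed in the series. 3T3-L1 is an established mouse fibroblast line that serves as a preadipocyte model because it fills with lipid after hormonal induction. The series holds 10 samples of this line, each 1 library. They also cover H3K9ac at 24 h, binding of the transcription factor C/EBPβ before induction (0 h) and after 6 h, binding of the glucocorticoid receptor, GR, after 6 h, and 4 input libraries, which were not analysed here. The 240 h cells were harvested 10 days after a standard induction whose agents the labels do not name, and the labels do not give the share of cells that became adipocytes. Per the labels, each H3K9ac list holds only regions outside transcription start sites that were enriched at its own time relative to another of the 3 times. A 0 h region may therefore have been called against 24 h or against 240 h. The lists carry coordinates on the mouse build mm8 and no gene names, so the labelled cell state was not checked against marker genes and regions are named by position.

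H3K9ac is placed by histone acetyltransferases that transcriptional activators recruit. It is typical of active promoters and of active enhancers, the distal elements that raise transcription of nearby genes. When preadipocytes become adipocytes, many enhancers of the fibroblast state lose acetylation and enhancers of lipid storage and metabolism genes gain it. Active enhancers often lie in clusters along a chromosome, and strong clusters are often found beside genes that define a cell's identity. C/EBPβ and GR act in the first hours of this programme, before the adipocyte regulators PPARγ and C/EBPα take over.

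Regions of adipocytes were slightly broader than those of preadipocytes, and the ratio between the lists was largest among the widest regions. The median width was 1500 bp at 0 h (quartiles 1100 and 2250 bp) and 1600 bp at 240 h (quartiles 1150 and 2500 bp). The 95% order-statistic intervals of the medians were 1450 to 1500 bp and 1600 to 1650 bp. The 95th percentiles were 4050 and 5000 bp, and the 99th were 6100 and 8400 bp. Regions wider than 3 kb made up 535 of the 0 h list (12.1%, 11.2 to 13.1%) and 1335 of the 240 h list (17%, 16.2 to 17.9%). The difference was 4.94 percentage points (3.65 to 6.19). It was 10.7 points (8.32 to 12.96) among regions with an FDR of 0, and 13.2 points (11.6 to 14.8) with the 240 h list limited to its 4429 regions of highest read count. That last value sets selected 240 h regions against the whole 0 h list. Wider regions had higher read counts, so the selection raises the difference by construction. Above 10 kb there were 4 regions at 0 h and 39 at 240 h. In all, 8.25 Mb of DNA was listed at 0 h and 16.6 Mb at 240 h.

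Intervals of shares here and below are 95% Wilson intervals, and those of differences 95% Newcombe intervals. They cover counting error only. Neighbouring regions are not independent, so the intervals are too narrow. With 1 library a side no spread between cultures can be given, and a difference in depth or enrichment between the libraries cannot be told apart from a difference between the cell states.

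The width difference went with the authors' average read count, a whole-number signal for each region whose scaling is not described. Its median was 11 in both lists, but 240 h regions reached higher, with 95th percentiles of 15 and 17 and highest values of 32 and 45. At read counts of 8 or 9 the difference in regions wider than 3 kb was 3.33 points (1.52 to 5.03). Among regions with a read count of 10, 6.90% at 0 h and 7.13% at 240 h were wider than 3 kb, a difference of 0.231 points (-1.57 to 1.93). The difference was 1.57 points (-1.18 to 4.23) at a read count of 11 and 2.34 points (-1.57 to 6.08) at 12. It was 6.40 points (1.56 to 11) at 13 or 14 and -0.996 points (-9.05 to 6.79) at 15 to 17, so 2 of the 6 classes below 18 had an interval above 0. The largest difference was 24.9 points (11.6 to 36.3) at 18 or more, where 32.8% of 64 regions at 0 h and 57.7% of 352 regions at 240 h were wider than 3 kb. Weighting the 240 h read count classes as at 0 h gave 14.4% of wide regions in place of 17%. Within each list wider regions had higher counts, with a Pearson r of 0.326 over 4429 regions at 0 h and 0.444 over 7845 at 240 h. These r values are descriptions of regions that share a library.

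**Figure D1:**
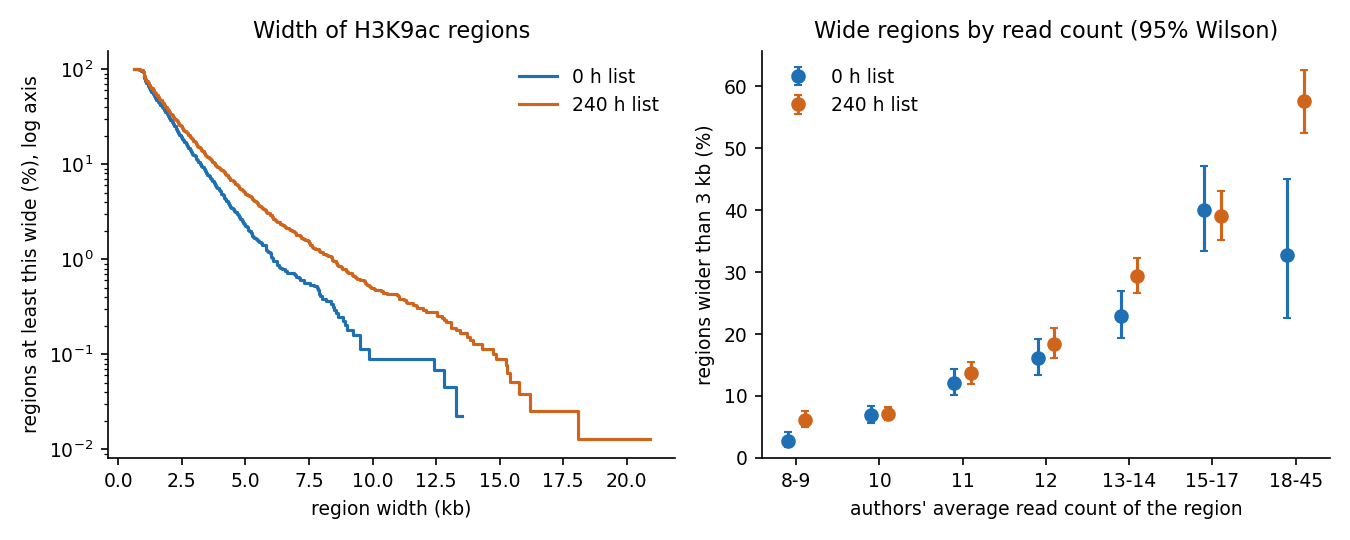
Left, share of regions (log axis) at least as wide as the value on the x axis (kb), for the 0 h and the 240 h list. Right, share of regions wider than 3 kb by the authors' average read count, with 95% Wilson intervals. Shares of the 240 h list are higher at widths over 1.5 kb (53.7% against 48.0%) and over 5 kb (4.91% against 2.26%), and the largest gap between the points is at read counts of 18 or more.

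Of the 5 widest 0 h regions, 3 lay on chromosome 6. The widest of all spanned 89422900 to 89436400 on that chromosome, 13.5 kb with a read count of 13. Next came chromosome 6 from 52786350 to 52799650 (13.3 kb, read count 21) and from 88387800 to 88400600 (12.8 kb, read count 16). Chromosome 3 from 154221300 to 154233700 (12.4 kb) and chromosome 7 from 98372100 to 98381950 (9.85 kb) completed the 5 widest. Each of these 5 had another 0 h region within 5.45 kb, and the nearest 240 h region was between 72.15 and 2161 kb away. Of the 5, 3 had a C/EBPβ 0 h peak within 1 kb and none had a GR peak. Among 0 h regions over 2500 bp, 27.8% with a 0 h neighbour within 12500 bp and 28.7% without one had such a C/EBPβ peak. In the whole 0 h list a GR peak was near 4.17% and 3.72% of these 2 groups.

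At 240 h the widest region covered 20.9 kb on chromosome 8, from 127711500 to 127732400, with a read count of 28. It was followed by chromosome 6 from 94558100 to 94576200 (18.1 kb, read count 15) and chromosome 5 from 36187100 to 36203300 (16.2 kb, read count 23). Chromosome 5 also held the next 2, from 136508250 to 136524000 (15.75 kb) and from 30873500 to 30888900 (15.4 kb). None of these 5 had a C/EBPβ 0 h or GR peak within 1 kb, and 1 had a C/EBPβ 6 h peak. Their nearest 0 h region lay 20.45 to 387.55 kb away. Among 240 h regions over 2500 bp, 10.8% with a 240 h neighbour within 12500 bp and 10.1% without one had a C/EBPβ 0 h peak. For C/EBPβ 6 h peaks these shares were 16.3% and 17.7%, and for GR in the whole 240 h list 1.86% and 3.04%. Counts among 5 regions are too few to set the lists apart.

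Most of the 5 regions of highest read count in each list had close neighbours of their own list. At 0 h these were on chromosome 10 from 38512950 (read count 32), chromosome 6 from 88292950 (31), chromosome 8 from 82096250 (25), chromosome X from 165490100 (24) and chromosome 6 from 88349400 (23). All except the one on chromosome X had another 0 h region within 1.45 kb. At 240 h the highest were on chromosome 19 from 44467550 (45) and from 40404250 (38), chromosome 1 from 195010150 (34) and from 133816800 (34), and chromosome 6 from 124390800 (33). They belonged to groups of 10, 5, 9, 5 and 4 neighbouring 240 h regions. The nearest 0 h region to the strongest of them, on chromosome 19, was 603 kb away. In the whole lists, 45.4% of 0 h and 62.3% of 240 h regions had a neighbour of their own list within 12500 bp. The median read count was 11 with such a neighbour and 10 without one at 0 h, and 11 in both groups at 240 h. Counts among 5 regions do not tie read count to clustering.

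To describe clustering, regions of one list separated by a gap of at most 12500 bp were joined, and a domain of at least 2 regions is called joined. The preadipocyte list formed 748 joined domains and 2417 lone regions, and the adipocyte list 1581 joined domains and 2960 lone regions. Joined domains held 2012 preadipocyte regions (45.4%, 44.0 to 46.9%) and 4885 adipocyte regions (62.3%, 61.2 to 63.3%), a difference of 16.8 points (15 to 18.7). Domains of 5 or more regions numbered 55 at 0 h, with 8.29% of the list, and 221 at 240 h, with 19.4%. Those of 10 or more numbered 5 and 23. A longer list forms more domains by its length alone. With the 240 h list limited to its 4429 regions of highest read count the difference was 4.70 points (2.62 to 6.77). Those regions were chosen by signal and not at random, while the 0 h list was kept whole. The value is therefore not a difference corrected for length alone.

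**Figure D2:**
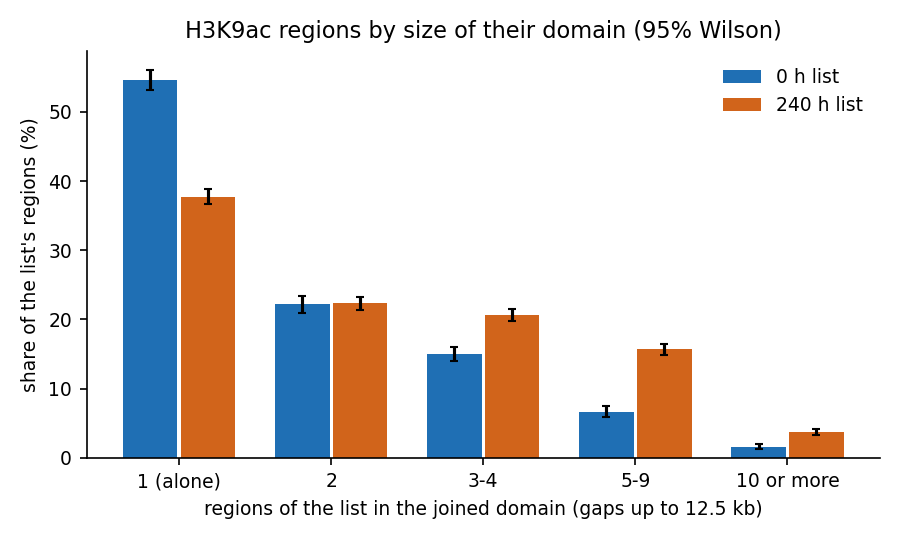
Share of each list's regions (y axis, %) by the number of regions in the domain they belong to (x axis), where gaps of up to 12500 bp were joined. Bars are the 0 h and 240 h lists with 95% Wilson intervals. Lone regions make up 54.6% of the 0 h and 37.7% of the 240 h list, while domains of 5 to 9 regions hold 6.66% and 15.7%.

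The typical joined domain differed little in length between the lists. The median span of a joined domain was 9.50 kb at 0 h (quartiles 5.54 and 14.8 kb) and 10.4 kb at 240 h (quartiles 6.05 and 17.4 kb), and listed regions covered a median of 53.2% and 55.1% of the span. Spans over 50 kb were reached by 6 domains at 0 h and 28 at 240 h. In both lists regions inside joined domains were wider than lone ones, with medians of 1650 against 1350 bp at 0 h and 1750 against 1450 bp at 240 h. The share wider than 3 kb was 16.7% in joined domains and 8.23% alone at 0 h, a difference of 8.47 points (6.52 to 10.4). At 240 h it was 21.2% and 10.2%, a difference of 11 points (9.4 to 12.6). Joined regions also more often carried an FDR listed as 0, by 8.30 points (5.35 to 11.2) at 0 h and 9.16 points (6.90 to 11.4) at 240 h. At 0 h the share wider than 3 kb was 15.5% in domains of 2 regions, 14.9% in those of 3 or 4, 21.7% in those of 5 to 9 and 29.2% (19.9 to 40.5%) in the 5 domains of 10 or more. At 240 h it was higher in each larger class, from 15.6% in domains of 2 to 30.2% (25.2 to 35.7%) in the 23 domains of 10 or more.

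The domain with most 0 h regions lay on chromosome 17 from 14293550 to 14411000. It held 20 regions over 117.45 kb, with read counts of 9 to 19, together with 7 peaks of C/EBPβ at 0 h, 6 at 6 h and 2 peaks of GR, and the nearest 240 h region was 37.15 kb outside it. The next lay on chromosome 19 from 17281350 to 17362900, with 16 regions, 7 C/EBPβ 6 h peaks, 4 GR peaks and no C/EBPβ 0 h peak. The one after that lay on chromosome 6 from 117169900 to 117246750, with 15 regions, 2 peaks of C/EBPβ at 0 h, 6 at 6 h and 1 of GR. No 240 h or 24 h region lay inside any of these 3 preadipocyte domains.

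The largest adipocyte domain lay on chromosome 6 from 88668450 to 88797800. Its 23 regions spanned 129.35 kb and covered 76.6% of it, with read counts of 9 to 29 and widths of 950 to 13300 bp. It held 1 C/EBPβ 0 h peak, 3 C/EBPβ 6 h peaks and no GR peak. The next were on chromosome 17 from 27657950 to 27755450, with 20 regions, 1 C/EBPβ 0 h and 2 C/EBPβ 6 h peaks, and on chromosome 8 from 71751300 to 71845350, with 17 regions, 8 C/EBPβ 6 h peaks and 1 GR peak. No 0 h region lay inside these 3 domains, although the nearest was only 13.2 kb from the last of them.

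Over all joined domains, few held a region of the opposite list inside their span. Of the 748 joined domains at 0 h, 3 (0.401%, 0.136 to 1.17%) held a 240 h region inside their span. Of the 1581 at 240 h, 11 (0.696%, 0.389 to 1.24%) held a 0 h region. A region of the shorter 24 h list lay inside 6 of the 0 h domains (0.802%) and 5 of the 240 h domains (0.316%). The gaps are a small part of the chromosomes, so such shares are low for any list. The gaps inside 0 h domains came to 4.64 Mb and held 0.646 regions of the 240 h list per Mb, against 2.99 per Mb over the chromosomes as a whole. The gaps inside 240 h domains came to 10.9 Mb and held 11 regions of the 0 h list, 0.594-fold the density over the chromosomes. Many such gaps are shorter than any listed region, which lowers these densities by construction, so they were not compared further.

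Regions mostly had their own kind as the closest neighbour. The nearest region of either list was from the same list for 3339 preadipocyte regions (75.4%, 74.1 to 76.6%) and 6919 adipocyte regions (88.2%, 87.5 to 88.9%). The lists make up 36.1% and 63.9% of all regions. The share depended on the gap. With the nearest region within 1 kb it was of the same list in 96.9% of cases at 0 h and 98.9% at 240 h. At gaps of 25 to 50 kb these shares were 68.3% and 78.2%, and at gaps over 100 kb they were 53.5% (49.7 to 57.3%) and 61.3% (57.4 to 65.1%). The interval of the last share includes 63.9%, while the interval at 0 h lies above 36.1%.

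Counting all pairs of regions on a chromosome gave the same picture without dependence on the nearest one. Of pairs with midpoints up to 5 kb apart, 82 of 2786 (2.94%) joined a 0 h with a 240 h region. The share of such mixed pairs was 6.68% at 5 to 10 kb, 19.1% at 50 to 100 kb, 36.3% at 200 to 500 kb and 43.4% at 1 to 2 Mb, close to the 43.9% at 5 to 10 Mb. Up to 100 kb in all it was 13.4% of 30872 pairs. Per kb of distance, pairs of 0 h regions up to 5 kb apart were 20.1-fold as dense as at 5 to 10 Mb, and pairs of 240 h regions 13.6-fold. Mixed pairs were 0.579-fold as dense up to 5 kb, rose to 1.77-fold at 100 to 200 kb and were 1.49-fold at 1 to 2 Mb. Below 5 Mb, mixed pairs were thus sparser than at 5 to 10 Mb only up to 5 kb, and up to 1 Mb they were enriched less than pairs within either list. The closest distances are limited by the widths of the regions, which do not overlap. Pairs share regions, so no interval is given.

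**Figure D3:**
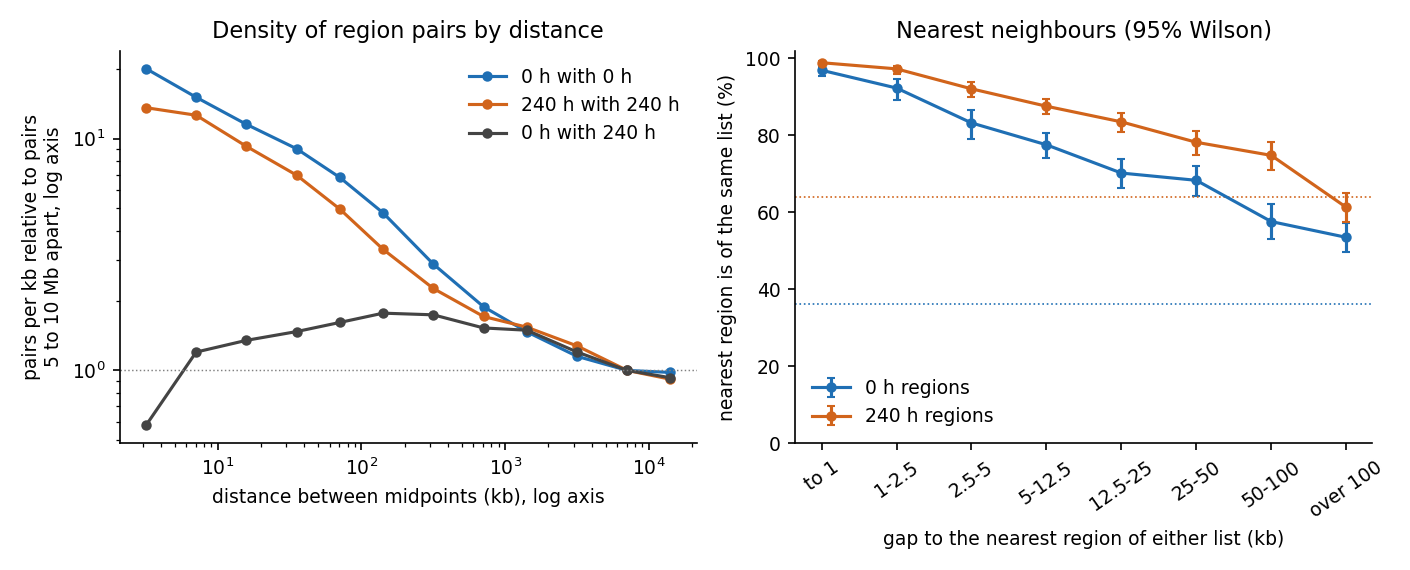
Left, number of region pairs per kb of distance relative to that at 5 to 10 Mb (y axis, log) against the distance between midpoints in kb (x axis, log), for pairs within and between the lists. Right, share of regions whose nearest region is of the same list, by the gap to it, with 95% Wilson intervals, where dotted lines mark the share of each list among all regions. Mixed pairs fall to 0.579-fold at the shortest distances, where same-list pairs reach 20.1-fold and 13.6-fold.

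Median distances to the opposite list were longer than those within each list. The median from a 0 h region to the nearest 240 h region was 170.9 kb (160.4 to 180.95 kb, quartiles 56.7 and 470.7 kb), against 17.3 kb to the nearest other 0 h region. From a 240 h region the median was 190.45 kb (182.45 to 197.5 kb) to the nearest 0 h region and 5.40 kb to the nearest of its own list. At the joining gap of 12500 bp or closer to a 240 h region lay 323 preadipocyte regions (7.29%, 6.56 to 8.10%), and 368 adipocyte regions (4.69%, 4.24 to 5.18%) had a 0 h region that close. More than 1 Mb separated 11.4% of 0 h and 7.98% of 240 h regions from the opposite list. Other listed sites had shorter medians. The median distance to the nearest 240 h region was 128.4 kb (116.35 to 147.4 kb) from H3K9ac 24 h regions, 130.8 kb from C/EBPβ 0 h peaks and 131.3 kb from GR peaks. From C/EBPβ 6 h peaks it was 156.4 kb (150.5 to 162.8 kb), an interval that overlaps that of the 0 h regions.

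Regions close to the opposite list were smaller and more isolated than the rest. Among 0 h regions within 12500 bp of a 240 h region, 24.1% were in a joined domain, against 47.1% of the others, a difference of -23.0 points (-27.6 to -17.8). For 240 h regions close to a 0 h region the shares were 43.75% and 63.2%, a difference of -19.4 points (-24.5 to -14.2). A region in a joined domain has own-list neighbours within the same 12500 bp. That leaves less room there for the opposite list, so part of these differences may arise by construction. Fewer of the regions close to the opposite list were wider than 3 kb, by -5.01 points (-7.62 to -1.49) at 0 h and -4.74 points (-7.86 to -0.876) at 240 h. The 0 h regions near the opposite list also less often had a C/EBPβ 6 h peak within 1 kb, 17% against 24.6% (-7.62 points, -11.6 to -2.95). For 240 h regions that difference was -0.357 points (-3.42 to 3.46).

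At the closest boundaries the lists touched. A gap of at most 1 kb separated 27 pairs of a 0 h and a 240 h region, and 2 pairs shared a boundary. One was on chromosome 4, where a 240 h region from 43756900 to 43758200 (read count 10) met a 0 h region ending at 43759000 (read count 9). The other was on chromosome 6, where a 0 h region from 137421050 to 137422250 (read count 10) met a 240 h region ending at 137423250 (read count 9). A gap of 50 bp separated a 0 h region on chromosome 9 from 20560450 to 20561850 (read count 14) from a 240 h region ending at 20563450 (read count 11). Chromosome 12 from 113577450 to 113579700 and a place on chromosome 18 followed with the same gap. All 5 pairs consisted of regions of at most 1600 bp, and none held a listed C/EBPβ or GR peak or a 24 h region. Such peaks were uncommon near all regions within 12500 bp of the opposite list. A C/EBPβ 0 h peak was within 1 kb of 13.3% at 0 h and 9.24% at 240 h, and a GR peak of 2.79% and 1.09%. Their absence from 5 pairs therefore does not mark these boundaries off. The smallest gap between regions of the same list was 100 bp.

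Segregation was also examined in fixed windows of 100 kb, with a region assigned by its midpoint. Of 26214 windows, 1904 held 0 h regions only, 2738 held 240 h regions only and 652 held both. Regions in windows of their own list alone made up 77.7% of the 0 h list and 82.4% of the 240 h list. A 240 h region lay in 652 of the 2556 windows with a 0 h region (25.5%, 23.9 to 27.2%), against 12.9% of all windows. A 0 h region lay in 19.2% (17.9 to 20.6%) of the windows with a 240 h region, against 9.75% of all windows. At this scale, then, the lists met more often than in windows at large. Windows with an H3K9ac 24 h region held a 240 h region in 29.1% (26.5 to 31.8%) and a 0 h region in 25% (22.6 to 27.6%) of cases. Windows with a GR peak held them in 29.9% and 27.4% of cases.

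Windows with many regions of one list less often held the other. A 240 h region lay in 27.3% of windows with 1 region of the 0 h list, in 27.4% of those with 2, in 19% of those with 3 or 4 and in 15 of 137 windows with 5 or more (10.9%, 6.75 to 17.3%). The difference between 5 or more and 1 was -16.4 points (-21.1 to -9.71). In the other direction, a 0 h region lay in 20.2% of windows with 1 region of the 240 h list, 19.1% of those with 2, 19.9% of those with 3 or 4 and 14.1% of those with 5 or more. The difference between the last and the first was -6.13 points (-9.84 to -1.87). Of 54 windows with at least 10 regions in all, 47 (87.0%) held 1 list only. These were 8 windows of 0 h and 39 of 240 h. Windows of 1 list only made up 73.5% of 1637 with at least 3 regions and 74.6% of 606 with at least 5. Of all 5294 windows with a region of either list, 652 held both, but a window with 1 region holds 1 list by definition. Windows with more C/EBPβ 0 h peaks, by contrast, more often held a region of either list. Windows with 1 such peak held a 0 h region in 19.6% of cases and windows with 5 or more in 55.2% (47.3 to 62.8%), a difference of 35.6 points (27.6 to 43.4). For 240 h regions the shares were 26.9% and 38.3%, a difference of 11.4 points (3.94 to 19.4).

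The windows with most 0 h regions lay on chromosome 17 from 14300000 with 16, chromosome 19 from 17300000 with 14 and chromosome 6 from 117200000 with 13. None of them held a 240 h or 24 h region, and they held 6, 0 and 7 C/EBPβ 0 h peaks. The 3 windows with most 240 h regions held 15 each and had 0 to 2 peaks of C/EBPβ at 0 h. The one on chromosome 11 from 53600000 also held 1 region of the 0 h list, while the windows on chromosomes 15 and 18 held none. Of 26214 windows, 294 had 3 or 4 regions of the 0 h list and 137 had 5 or more. For the 240 h list these numbers were 642 and 384. Both lists had 3 or more regions in 10 windows, a number not tested against unrelated placement. The first of the 10, on chromosome 6 from 127000000 to 127100000, had 7 regions of 0 h and 3 of 240 h. It held 6 peaks of C/EBPβ at 0 h, 4 at 6 h and 1 of GR. Chromosome 5 held the next 2, from 21100000 with 3 and 4 regions and from 111400000 with 4 and 3.

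Read in order along the chromosomes, the 12274 regions fell into 2713 uninterrupted runs of one list, with a mean of 3.27 regions per run at 0 h and 5.78 at 240 h. Runs of 10 or more regions held 31.8% of the 0 h and 55.9% of the 240 h list. The runs named here were singled out after their values had been seen. The longest 0 h run counted 76 regions over 12.7 Mb of chromosome 10, from 25879650 to 38546200, and held the 0 h region of highest read count. As a 0 h run it held no 240 h region by definition, and 6 regions of 24 h and 110 C/EBPβ 6 h peaks were listed in it. Over the 2620 Mb up to the highest listed coordinates there were 1629 regions of 24 h. C/EBPβ peaks there numbered 10359 at 0 h and 20746 at 6 h. Whether the named runs depart from these rates was not tested. A denser run of 57 regions of the 0 h list covered 1.18 Mb of chromosome 6 from 116618400 to 117794450, with 36 C/EBPβ 0 h peaks. The longest 240 h run counted 55 regions over 1.60 Mb of chromosome 11, from 53622350 to 55222700, with 8 peaks of C/EBPβ at 0 h, 12 at 6 h and 1 of GR.

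One stretch of chromosome 6 showed the alternation of the lists over about 1.3 Mb. It surrounds the adipocyte domain with most regions, and its limits were set after its values had been seen. A run of 15 regions of the 0 h list, with read counts of 9 to 31, covered 88153850 to 88467300 and included 2 of the 5 highest and 1 of the 5 widest regions of that list. It was followed by 33 regions of the 240 h list from 88553350 to 88858350, with read counts of 9 to 29. Then came 4 regions of 0 h from 88903300 to 89004750, 4 of 240 h from 89123900 to 89350750 and 7 of 0 h from 89368500 to 89466400, where the widest 0 h region lay. C/EBPβ 0 h peaks numbered 5 in the first 0 h run and 2 in the 240 h run that followed. The whole stretch held no 24 h region.

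**Figure D4:**
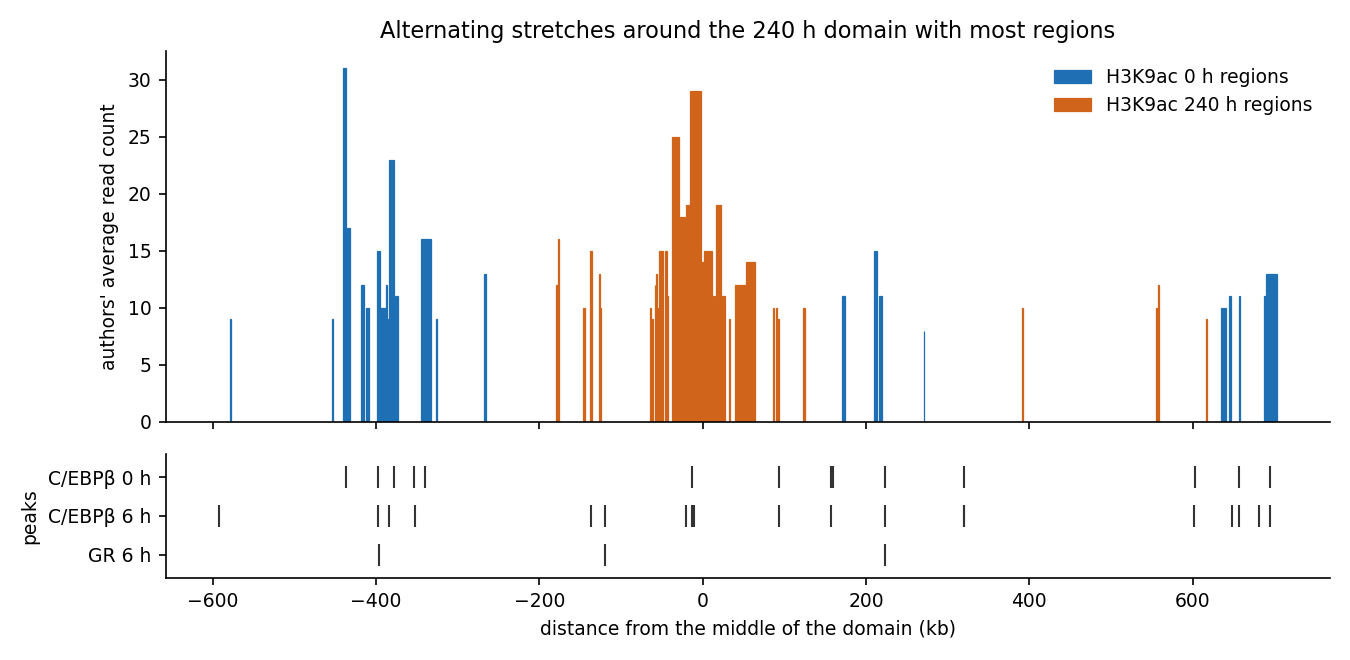
H3K9ac regions around the 240 h domain with most regions, with the distance from its middle in kb (x axis) and the authors' average read count (y axis) of each 0 h and 240 h region, bars drawn at region width. Ticks below mark C/EBPβ and GR peaks. Regions of the 2 lists occupy separate blocks, with 33 regions of the 240 h list between 2 blocks of the 0 h list.

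The balance of the lists differed between chromosomes. The 0 h list made up 36.1% (35.2 to 36.9%) of the regions of both. On chromosome X it made up 105 of 155 regions (67.7%, 60.0 to 74.6%), the highest share of any chromosome. Chromosome 3 followed with 212 of 439 (48.3%, 43.7 to 53.0%). The lowest share was on chromosome 5, with 221 of 840 (26.3%, 23.4 to 29.4%), next to chromosome 11 with 27.0% (24.2 to 29.9%) and chromosome 8 with 27.7% (24.7 to 30.9%), whose intervals overlap it. Chromosome X was sparse in both lists, with 0.634 regions of 0 h and 0.302 of 240 h per Mb, while chromosome 19 had the highest density of 240 h regions at 6.05 per Mb. Chromosome 6 held the most regions of both lists, 447 and 762, and also the most peaks of GR and of C/EBPβ at either time. Copy number of the chromosomes in these cells was not tested.

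**Figure D5:**
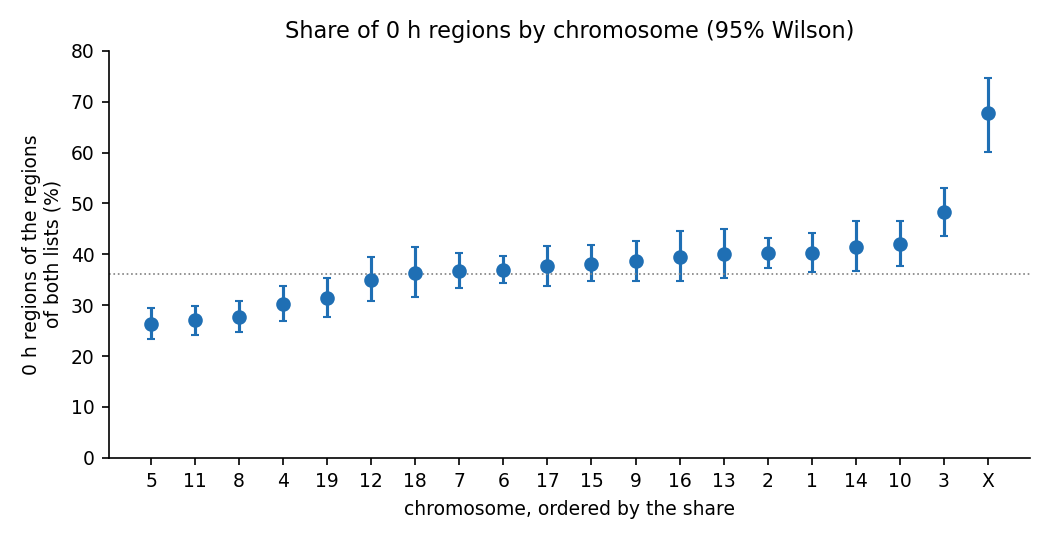
Share of 0 h regions among the regions of both lists (y axis, %) on each chromosome (x axis, ordered by the share), with 95% Wilson intervals and a dotted line at the share over all chromosomes. Chromosome X stands highest at 67.7%, and chromosomes 5, 11 and 8 lowest at 26.3 to 27.7%.

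Early factor binding, a measure apart from the H3K9ac lists, was more common in preadipocyte than in adipocyte domains. Of the joined domains at 0 h, 302 of 748 (40.4%, 36.9 to 43.9%) had a C/EBPβ 0 h peak inside or within 1 kb, against 337 of 1581 (21.3%, 19.4 to 23.4%) at 240 h. The difference was 19.1 points (15 to 23.1), although the 240 h domains were slightly longer. For C/EBPβ 6 h peaks it was 18.8 points (14.6 to 23.0), and for GR peaks 5.54 points (3.11 to 8.23), with 11.4% of 0 h and 5.82% of 240 h domains. Per Mb of listed region there were 79.5 C/EBPβ 0 h peaks at 0 h and 30.3 at 240 h, 113 and 50.4 C/EBPβ 6 h peaks, and 16 and 8.26 GR peaks.

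Clustering went with factor binding differently in the 2 lists. At 0 h, 25.2% of regions in joined domains and 23.1% of lone regions had a C/EBPβ 6 h peak within 1 kb, a difference of 2.12 points (-0.407 to 4.66), or -0.114 points (-3.97 to 3.85) among regions with an FDR of 0. At 240 h these shares were 11.1% and 15%, a difference of -3.90 points (-5.48 to -2.37). The 2 differences were themselves 6.03 points apart (3.07 to 9.02). For C/EBPβ 0 h peaks the differences were 1.57 points at 0 h and -2.38 points at 240 h, 3.95 points apart (1.37 to 6.58), and for GR peaks 0.451 and -1.18 points, 1.63 points apart (0.286 to 3.04). The lower share per region in 240 h domains was also seen at equal width. Between 1000 and 1500 bp, 9.24% of 1364 joined and 15.1% of 1025 lone regions were near a C/EBPβ 6 h peak (-5.88 points, -8.61 to -3.24). Among 240 h regions over 2500 bp the difference was -1.39 points (-5.46 to 2.33). It depended on the distance as well. With peaks counted within 10 kb the difference at 240 h was 0.428 points (-1.76 to 2.6), and that at 0 h was 13.96 points (11 to 16.9). These are shares of regions, not of domains. Of whole joined domains, 29.3% at 240 h and 48.1% at 0 h had a C/EBPβ 6 h peak inside or within 1 kb. Both exceed the shares of lone regions, but a domain spans more DNA than a lone region.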

How the data were processed

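ChIP-seq was done on 3T3-L1 cells with 1 library per antibody and time. Per the labels' protocols, 36 bp reads were aligned to mm8 with ELAND (2 mismatches at most), and of reads with a single position 1 was retained per start. This caps strong signal and leaves repeats uncovered. For the H3K9ac lists, caller and test: not given in the sources used here. The authors' deposited lists give coordinates on a 50 bp grid, an average read count per region (a signal, scaling not stated) and an FDR (a q-value) in 4 steps at 0 h and 5 at 240 h, the lowest written as 0. The authors' deposited factor lists give a peak height (a signal) and a fold enrichment (a ratio), of which only positions were used here. No list gives read totals, so the depth is unknown, and absence from a list does not mean absence of signal.

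Python 3.11.15, numpy 2.4.6, pandas 2.3.3, scipy 1.17.1 and matplotlib 3.10.9 were used, and no region was filtered out. Gaps were measured edge to edge. A factor peak was near a region within 1 kb. Windows ran to the highest listed coordinate of each chromosome. The code was tested on simulated data. Runs, the plotted stretch, width classes of joined and lone regions and the read count weighting were added after the data were seen. The regions compared, the measures and the named items (the 5 widest and 5 highest regions, the 3 largest domains and windows, the closest pairs, the extreme chromosomes) were chosen with earlier results of these data known. Alternatives covered the FDR, list length, autosomes, merging of regions under 1 kb apart, and each distance. No pairing of libraries was possible.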

Additional observations from a re-analysis of the deposited data

How the results depend on the processing

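Of the differences, 27 kept their direction and their call under the alternatives, 2 changed sign and 1 gained an interval without 0. These 3 concern joined minus lone regions near C/EBPβ 6 h peaks. Within 10 kb they gave 0.428 points at 240 h and 13.96 points at 0 h, and with an FDR of 0 only the 0 h value was -0.114 points (-3.97 to 3.85). The difference in regions wider than 3 kb kept its direction but was 10.7 points with an FDR of 0 only. It was 13.2 points with the 240 h list limited by read count to the length of the 0 h list. Both selections favour wide regions. Of the shares and medians, 29 stayed within their intervals and 44 moved, and the cause was not tested. The 27 and the 29 each include a value of the 0 h list alone with only the 240 h list shortened, which could not change. With an FDR of 0 only, median widths were 2050 and 2350 bp (0 h and 240 h in turn), regions in joined domains 35% and 47.6%, and windows with both lists 13.98% and 10.2%. The nearest region was of the same list for 85.5% at 240 h, mixed pairs were 10.7% within 100 kb and 45.0% at 5 to 10 Mb, median distances to the opposite list 311.8 and 374.15 kb, and regions within 12500 bp of it 2.91% and 1.94%. With the 240 h list limited by read count to the length of the 0 h list, its median width was 1900 bp and 50.1% of it lay in joined domains. Windows with both lists were then 17.4% of those with a 0 h region, nearest regions of the same list 79.996% and 81.3%, far mixed pairs 49.2%, the median distance from 0 h regions 248.4 kb and the shares within 12500 bp 4.22% and 4.20%. With regions under 1 kb apart merged, the values were 1550 and 1750 bp, 34.9% and 49.9% in joined domains, 71.4% and 84.7% for the nearest region, and 17.1% and 45.2% for near and far mixed pairs. Joining within 5 kb gave 33.4% and 49.0%, and within 25 kb 54.9% and 72.6%. Windows of 50 kb gave 15.2% and 10.7%, and of 200 kb 39.2% and 31.6%. Mixed pairs were 9.87% up to 50 kb and 18.7% up to 200 kb. Shares near the opposite list were 2.94% and 1.72% within 5 kb and 13.4% and 9.39% within 25 kb. No paired analysis was possible because there is 1 library a group, which also leaves no replicate to omit. The unknown depth limits every statement about regions missing from a list.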

Other observations

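The H3K9ac 24 h regions, which belong to neither list, lay at similar distances from both. Of 1629 such regions, 780 (47.9%, 45.5 to 50.3%) were nearer to a 0 h region and 849 (52.1%, 49.7 to 54.5%) to a 240 h region, although the 240 h list is the longer one. Median distances were 152.9 kb to the nearest 0 h and 128.4 kb to the nearest 240 h region. Few lay inside the span of a joined domain, 6 in 0 h domains and 5 in 240 h domains, and 15 had a region of both lists within 12500 bp. A 24 h region touched or overlapped a 0 h region in 5 cases and a 240 h region in none.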
